A study of Homo sapiens with 4 samples.

Results

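The 49 genes described here encode the machinery of DNA replication and the enzymes that make deoxynucleotides, and were taken by gene symbol from the 60662 genes of the deposited NB4 table. They comprise the MCM helicase, the origin recognition complex, licensing and firing factors, the sliding clamp and its loader, the replicative polymerases, RPA, the enzymes that join Okazaki fragments, 4 genes of deoxynucleotide synthesis and the chromatin remodeler HELLS. RNA was sequenced from NB4 cells, an established human acute promyelocytic leukemia line that carries PML-RARα, transduced either with a control vector without insert (vector cells, 2 libraries) or with a vector expressing JMJD3 (JMJD3 cells, 2 libraries). JMJD3, the product of KDM6B, removes methyl groups from lysine 27 of histone H3, and the comparison asks which transcripts differ when it is expressed in leukemia cells. The labels do not say whether the libraries within each group stem from separate cultures, so that the p-values measure only the spread between these libraries, whose summed estimated counts were 39078443 (vector library 1), 40768225 (vector library 2), 35176388 (JMJD3 library 1) and 34704909 (JMJD3 library 2).

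KDM6B had 584 and 524 counts in the vector libraries and 1402 and 1635 in the JMJD3 libraries (log2 fold change 1.48, standard error 0.13, adjusted p = 0.00114 in edgeR), higher in both JMJD3 libraries than in either vector library, which fits their labels. Reads from the vector and from the gene in the genome are not separated in these counts. Of 7 promyelocyte markers 5 were tested, led by MPO, and their list summed to 8372 and 9361 FPKM (fragments scaled to transcript length and library total) in vector cells and to 4616 and 4576 FPKM in JMJD3 cells. CTSG, PRTN3, MPO and AZU1 fell and CD33 rose. ELANE and KIT had at most 13 and 8 counts in any library.

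Before S phase, the origin recognition complex, CDC6 and CDT1 load the MCM helicase onto DNA as an inactive double ring, and geminin (GMNN) binds CDT1 and blocks a second loading. The DBF4-CDC7 kinase then allows CDC45 and GINS to join the helicase, polymerase alpha-primase lays down primers, and polymerases epsilon and delta extend the leading and lagging strands with PCNA as their clamp. Many of these genes are transcribed mainly at the transition from G1 to S phase under E2F factors, so their RNA is abundant in dividing cells such as leukemia lines.

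All 49 genes passed the filter on low counts. At an adjusted p under 0.05, 19 were lower in JMJD3 cells and 3 were higher, while 27 did not pass (edgeR, p adjusted over 15246 tested genes). The lower genes made up 38.8% of the list, beside 19.1% of all tested genes called lower, and the higher genes 6.12%, beside 21.6% of all tested genes called higher. In 32 of the 49 genes both JMJD3 libraries lay below both vector libraries, and in 10 both lay above, where such separation was seen in 34.8% and 39.6% of all tested genes, respectively. Changes were small: they ran from a log2 fold change of -0.73 for MCM7 to 0.64 for RFC1. Not one gene reached 2-fold at an adjusted p under 0.05 in edgeR, the DESeq2 Wald test or limma, nor at an unadjusted p under 0.05, beside 2.82% of all tested genes at least 2-fold lower and 7.55% at least 2-fold higher. In bulk RNA, fewer cells in S phase and less RNA of these genes per cell cannot be told apart.

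The list median was a log2 fold change of -0.22, beside 0.04 for all tested genes. Genes of like abundance were also lower, though with library totals alone as the scale their median was 0.04. Among the 6771 tested genes with a mean FPKM of at least 11.6, that of POLA1, the lowest gene of the list, the median was -0.13, with 31.5% called lower and 12.6% higher and with both JMJD3 libraries below both vector libraries in 51.7%. Most of the distance between the replication genes and all tested genes was shared by genes of like level, a comparison chosen after seeing the data. The list median lay -0.08 from that of the genes of like level, and -0.04 from it when FPKM values were used in place of counts.

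**Figure D1:**
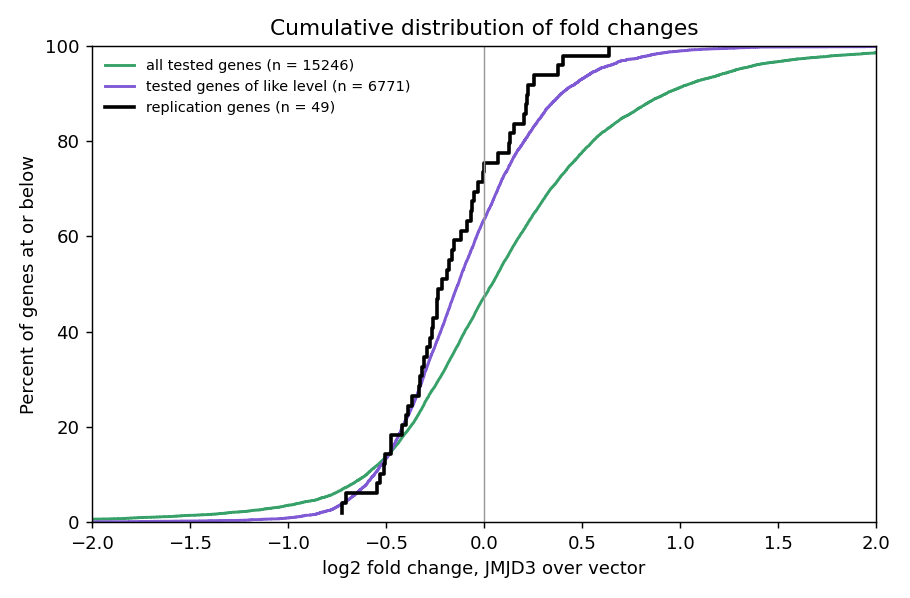
Cumulative percent of genes (y axis) at or below each log2 fold change of JMJD3 over vector cells (x axis, shown from -2 to 2) for the 49 replication genes (black), the 6771 tested genes of like level (purple) and all 15246 tested genes (green). Through the middle of the range the black curve runs close to the purple one, with medians of -0.22 and -0.13, and both lie left of the green curve, whose median is 0.04.

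Together the 49 genes took 0.812% and 0.819% of all counts in the vector libraries and 0.750% and 0.757% in the JMJD3 libraries, and their CPM (counts scaled to a common library total, here by TMM) summed to 8565 and 8746 against 7121 and 7097. The count of calls depended on the scale. With library totals alone as the scale, 10 genes were lower and 10 higher (20.4% each). The shares were 10.5% and 31.2% of all tested genes and 16.0% and 22.9% of genes of like level. The median of all tested genes then moved from 0.04 to 0.21. The distance of the list median from it stayed at -0.26, since a change of scale shifts every gene nearly alike. By the labels vector library 1 came from lane 20, all others from lane 17. Within lane 17, which is the fit without vector library 1, 29 genes were lower (59.2%) and 6 higher (12.2%), against 26.6% and 26.8% of all tested genes and 47.3% and 18.8% of genes of like level. Without vector library 2, 23 were lower (46.9%) and 5 higher (10.2%), against 21.7% and 21.5% of all tested genes and 36.7% and 15.8% of genes of like level. Without JMJD3 library 1, 7 were lower (14.3%) and 1 higher (2.04%), against 8.64% and 12.8% of all tested genes and 13.5% and 5.91% of genes of like level. Without JMJD3 library 2, 6 were lower (12.2%) and 1 higher (2.04%), against 7.03% and 12.0% and, at like level, 9.76% and 5.42%. The share called lower was thus close to that of genes of like level without JMJD3 library 1 and without JMJD3 library 2.

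Relative to the vector mean, the list median was -0.20 in both JMJD3 libraries, beside 0.04 and 0.035 for all tested genes. With each library left out in turn, the median log2 fold change of the list ran from -0.28 without vector library 1 to -0.17 without vector library 2. With library totals alone as the scale it was -0.05. At an adjusted p under 0.05, FEN1, MCM2, MCM7 and POLE were called lower under every scaling, test, filter and block tried and without each library in turn. CDC45, CDC6, GMNN, ORC6 and PCNA were called lower under every such setting that kept all 4 libraries. Not one of the 3 higher calls held under all settings.

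**Figure D2:**
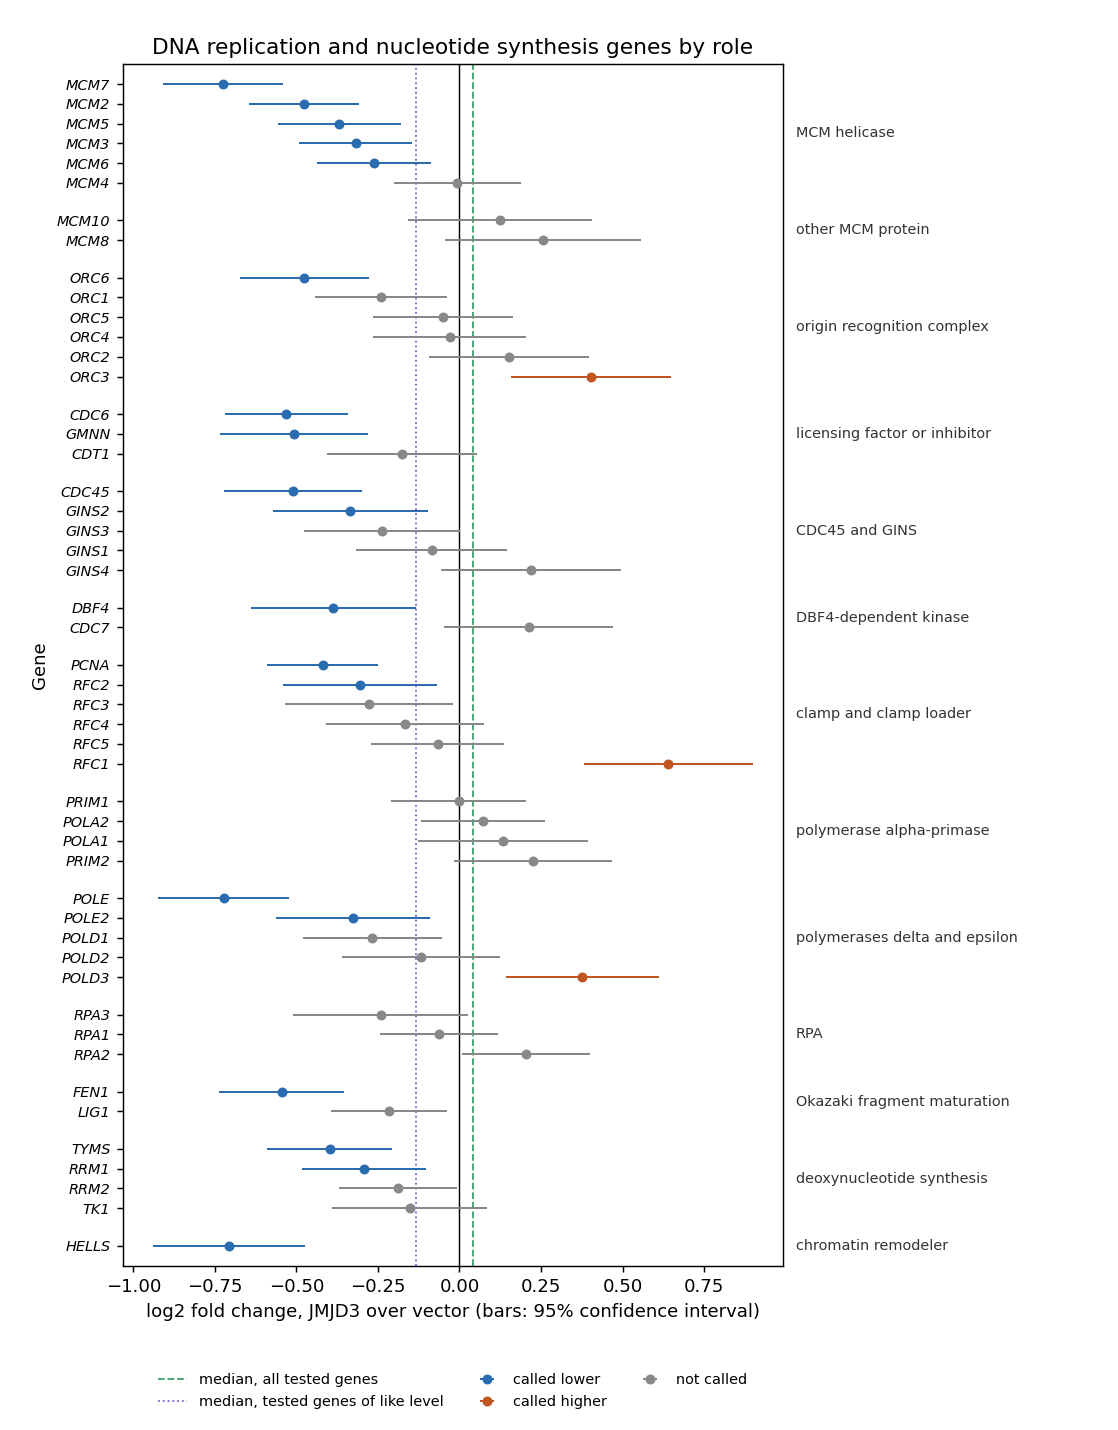
Log2 fold change of JMJD3 over vector cells for each of the 49 genes (points, from 2 libraries a group) with its 95% confidence interval (bars), grouped by role and colored by call at an adjusted p under 0.05, with lines at the medians of all tested genes (dashed, 0.04) and of tested genes of like level (dotted, -0.13). Most intervals of the MCM helicase lie left of 0, while those of polymerase alpha-primase span it, and with library totals alone as the scale 10 genes, among them MCM4 and PRIM1, turn positive.

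Promoters of the genes with the largest changes are printed for their motifs, since many replication genes carry E2F sites near their start. Windows from 250 bases before to 50 bases after a RefSeq start site (GRCh38.p14) matched 43 of the 49 genes, all but POLD3, GINS4, MCM5, RPA2, MCM4 and RPA3. They were searched on both strands for the E2F-type 8-mers TTTCCCGC, TTTCGCGC, TTTGCCGC and TTTGGCGC, for CCAAT, and for the CHR-type 6-mers TTTGAA and TTCGAA. Each sequence runs 5′ to 3′ on the gene's strand, with E2F-type and CCAAT matches in capitals. The windows are those of MCM7 (ENSG00000166508, chr7:100101348-100101647, minus strand, the one of its 3 windows with the most matches), POLE (ENSG00000177084, chr12:132687293-132687592, minus strand), HELLS (ENSG00000119969, chr10:94545538-94545837, plus strand) and RFC1 (ENSG00000035928, chr4:39366313-39366612, minus strand).
MCM7: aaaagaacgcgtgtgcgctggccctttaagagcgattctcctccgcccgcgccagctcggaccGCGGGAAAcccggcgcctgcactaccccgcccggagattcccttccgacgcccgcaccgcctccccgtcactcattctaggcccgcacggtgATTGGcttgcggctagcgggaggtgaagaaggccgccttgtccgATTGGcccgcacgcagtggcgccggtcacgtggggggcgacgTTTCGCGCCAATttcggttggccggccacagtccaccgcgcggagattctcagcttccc
POLE: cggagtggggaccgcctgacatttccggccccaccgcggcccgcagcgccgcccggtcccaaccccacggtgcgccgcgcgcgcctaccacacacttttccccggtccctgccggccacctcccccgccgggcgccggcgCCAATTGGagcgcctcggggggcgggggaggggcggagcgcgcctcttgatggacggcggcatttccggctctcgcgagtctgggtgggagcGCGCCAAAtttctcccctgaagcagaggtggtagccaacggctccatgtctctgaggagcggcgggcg
HELLS: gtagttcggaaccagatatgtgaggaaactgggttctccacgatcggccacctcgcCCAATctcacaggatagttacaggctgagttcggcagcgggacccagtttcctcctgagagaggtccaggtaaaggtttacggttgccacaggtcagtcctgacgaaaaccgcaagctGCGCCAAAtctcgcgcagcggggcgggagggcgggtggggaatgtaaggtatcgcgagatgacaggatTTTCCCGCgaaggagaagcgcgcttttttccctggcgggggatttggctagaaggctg
RFC1: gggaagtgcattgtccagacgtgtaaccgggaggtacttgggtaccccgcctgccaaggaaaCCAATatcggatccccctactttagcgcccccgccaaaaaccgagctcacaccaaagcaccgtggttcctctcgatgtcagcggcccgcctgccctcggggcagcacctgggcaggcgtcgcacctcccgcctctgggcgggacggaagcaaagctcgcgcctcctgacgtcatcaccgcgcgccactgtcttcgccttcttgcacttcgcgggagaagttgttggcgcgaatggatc
MCM7 holds E2F-type matches that begin 187 and 9 bases before its start site, and the second of them runs into a CCAAT match. POLE holds 1 E2F-type match, 18 bases before its start, and HELLS 2, at 76 and 8 bases. RFC1, the gene with the largest rise in the list, holds 0 of these 8-mers and 1 CCAAT match.

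E2F-type 8-mers were found in 22 of the 43 genes with a window (51.2%), beside 3.99% of 27305 genes with such windows and 8.03% of the tested genes of like level. They were present in 12 of 18 genes called lower (66.7%), 9 of 23 not called (39.1%) and 1 of 2 called higher. CCAAT was found in 60.5% of the 43 genes, beside 39.7% of all genes with a window and 44.3% of those of like level. CHR-type 6-mers, known from genes of the G2 and M phases, were found in 6.98%, beside 19.5% of all genes with a window and 768 of 5133 genes of like level, and the 3 genes that hold them, MCM6, DBF4 and RRM1, were all called lower (16.7% of 18). These letters describe the windows, and whether a factor binds them was not measured.

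The MCM helicase is a ring of 6 subunits, MCM2 to MCM7, and 5 of them fell while MCM4, which turned positive with library totals alone as the scale, did not pass. MCM7 stood at 1039 and 1148 CPM in vector cells and at 662 and 661 CPM in JMJD3 cells (log2 fold change -0.73, standard error 0.08, adjusted p = 0.0018). The JMJD3 libraries were nearly equal and lay far below both vector libraries. MCM2 had 568 and 596 CPM in vector cells and 415.5 and 421 CPM in JMJD3 cells (log2 fold change -0.48, adjusted p = 0.00399). MCM5, MCM3 and MCM6 fell by 0.37, 0.32 and 0.26 on the log2 scale, and stayed below 0 but did not pass with library totals alone as the scale. MCM3 and MCM6 did not pass with the replicate block, nor MCM6 with no filter. All 3 failed to pass without JMJD3 library 1 (adjusted p = 0.136, 0.134 and 0.311) or without JMJD3 library 2 (0.139, 0.222 and 0.286).

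MCM4 stood at 556 and 496 CPM in vector cells and at 517 and 530 CPM in JMJD3 cells, values that overlap. Its log2 fold change was -0.01 with a 95% confidence interval from -0.20 to 0.19, and 0.16 with library totals alone as the scale. By FPKM its values were 341 and 351 against 291 and 297, with a log2 fold change of -0.23 that did not pass (adjusted p = 0.0817, limma). The ratio of MCM7 to MCM4 counts within a library, which needs no scaling, was 1.87 and 2.32 in vector cells and 1.281 and 1.247 in JMJD3 cells. This pair and the other ratios given here were chosen after their values were seen. On the FPKM scale MCM7 made up 31.4% and 33.2% of the summed level of the 6 subunits in vector cells and 25.6% and 25.2% in JMJD3 cells, so that the subunit RNAs did not keep 1 proportion. About 23.6% of the exon bases of MCM2 and 8.49% of those of MCM7 are shared with other genes. In both, the largest overlap is with a gene on the opposite strand, whose reads cannot be told apart without strand information.

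MCM8 and MCM10 bear the family name but are not part of the ring: MCM8 acts in homologous recombination and MCM10 helps activate the helicase. Neither passed, and 0 of the 2 passed at an unadjusted p under 0.05 in edgeR, the DESeq2 Wald test or limma. MCM8 had 87.4 and 69.4 CPM in vector cells and 89.6 and 97.7 CPM in JMJD3 cells, both above the vector libraries, with a log2 fold change of 0.26 (adjusted p = 0.144). It was called higher with library totals alone as the scale and without vector library 1 (log2 fold change 0.39), while without vector library 2 its log2 fold change was 0.09. Of its exon bases 33.3% are shared with other genes, the largest overlap being with a gene on the same strand. MCM10 had a log2 fold change of 0.13, which was 0.23 without vector library 1 and -0.01 without vector library 2.

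Among the 6 subunits of the origin recognition complex, which marks the sites where replication starts, 1 fell and 1 rose. ORC6 went from 90.1 and 87.3 CPM in vector cells to 63.9 and 63.7 CPM in JMJD3 cells (log2 fold change -0.48, adjusted p = 0.00637). ORC3 went the other way, from 25.4 and 23.2 CPM to 31.7 and 32.6 CPM (log2 fold change 0.40, adjusted p = 0.022). The ratio of ORC3 to ORC6 counts was 0.282 and 0.266 in vector cells and 0.496 and 0.513 in JMJD3 cells. ORC1, the subunit best known for its cell cycle regulation, had -0.24 (adjusted p = 0.0617) and passed with DESeq2 size factors and without vector library 1 or 2 (0.0285 and 0.0239), and ORC2, ORC5 and ORC4 had 0.15, -0.05 and -0.03. On the scale of library totals alone ORC2 passed as higher, and ORC5 and ORC4 had 0.12 and 0.14. The ORC3 call was lost with FPKM values (log2 fold change 0.12, adjusted p = 0.385, limma), with no filter on low counts, and without JMJD3 library 1 or 2 (adjusted p = 0.171 and 0.244), and that of ORC6 without JMJD3 library 1 or 2 (0.09 and 0.0988).

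The licensing factor CDC6 and the licensing inhibitor geminin fell together. CDC6 had 116 and 117 CPM in vector cells and 79.8 and 81.4 CPM in JMJD3 cells (log2 fold change -0.53, adjusted p = 0.00399). GMNN had 91.2 and 103 CPM in vector cells and 69.85 and 66.7 CPM in JMJD3 cells (log2 fold change -0.51, adjusted p = 0.00803). The groups did not overlap in either gene, and the vector libraries of CDC6 were nearly equal. CDT1, the loading factor that geminin restrains, had a log2 fold change of -0.18 (adjusted p = 0.181). The ratio of CDT1 to GMNN counts was 2.01 and 2.10 in vector cells and 2.55 and 2.63 in JMJD3 cells. CDC6 missed the threshold without JMJD3 library 1 (log2 fold change -0.52) and GMNN without JMJD3 library 2 (-0.47). CDT1 had a log2 fold change of -0.33 without vector library 1, -0.06 without vector library 2 and 0.00 by FPKM.

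CDC45 and the 4 GINS subunits complete the active helicase. CDC45 stood at 79.1 and 83.4 CPM in vector cells and at 58.5 and 55.5 CPM in JMJD3 cells (log2 fold change -0.51, adjusted p = 0.00634), which did not pass without JMJD3 library 1 or 2 (adjusted p = 0.0534 and 0.109). GINS2 fell by 0.33 on the log2 scale (adjusted p = 0.0356), a call lost with FPKM values, library totals alone, no filter, the replicate block, and without JMJD3 library 1 or 2 (0.253 and 0.31). GINS3, GINS1 and GINS4 had log2 fold changes of -0.24, -0.09 and 0.22 and did not pass, though without vector library 1 GINS3 passed as lower (adjusted p = 0.0109) and GINS4 as higher (0.032), while GINS4 had 0.11 without vector library 2. With library totals alone GINS1 had 0.08 and GINS4 passed as higher.

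The kinase that fires origins consists of the catalytic subunit CDC7 and its activator DBF4, and their values differed in direction. DBF4 went from 72.7 and 62.25 CPM in vector cells to 51.7 and 51.5 CPM in JMJD3 cells (log2 fold change -0.39, adjusted p = 0.0275). CDC7 had 42.03 and 36.4 CPM in vector cells and 45.6 and 45.2 CPM in JMJD3 cells. Its log2 fold change of 0.21 did not pass (adjusted p = 0.159) but did with library totals alone and without vector library 1 (0.0212), and it was 0.11 without vector library 2. In the vector libraries there were 1.73 and 1.71 DBF4 counts per CDC7 count, and in the JMJD3 libraries 1.135 and 1.14. The DBF4 call was lost with FPKM values (log2 fold change -0.16, adjusted p = 0.398, limma), library totals alone, no filter, the replicate block, and without JMJD3 library 1 or 2 (0.208 and 0.23).

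PCNA, the ring that holds polymerases on DNA, was the most abundant gene of the list, at 559 and 571 FPKM in vector cells and 424 and 404 FPKM in JMJD3 cells. Its counts gave 606 and 604 CPM against 465 and 440 CPM (log2 fold change -0.42, adjusted p = 0.00586). The call was lost without JMJD3 library 2 (adjusted p = 0.0951). The loader that opens this ring has 1 large subunit, RFC1, and 4 small ones. RFC1 rose from 140.5 and 117 CPM in vector cells to 192 and 209 CPM in JMJD3 cells (log2 fold change 0.64, standard error 0.11, adjusted p = 0.0059), the largest rise in the list. There were 0.232 and 0.193 RFC1 counts per PCNA count in vector cells and 0.413 and 0.474 in JMJD3 cells. By FPKM, however, RFC1 had 62.25 and 57.5 in vector cells and 66.9 and 70.5 in JMJD3 cells, with a log2 fold change of 0.20 that did not pass (adjusted p = 0.147, limma).

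The small subunits RFC2, RFC3, RFC4 and RFC5 had log2 fold changes of -0.31, -0.28, -0.17 and -0.07. RFC2 alone passed in edgeR (adjusted p = 0.047), close to the threshold, and that call was lost in most alternatives, among them the fits without JMJD3 library 1 or 2 (adjusted p = 0.239 and 0.325). Without vector library 1 RFC4 had -0.31 and RFC3 -0.18, and without vector library 2 they had -0.07 and -0.41. RFC3 was called lower with DESeq2 size factors and by the DESeq2 Wald test, but had -0.14 by FPKM and -0.11 with library totals alone. RFC4 and RFC5 were above 0 with library totals alone, at 0.004 and 0.10.

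**Figure D3:**
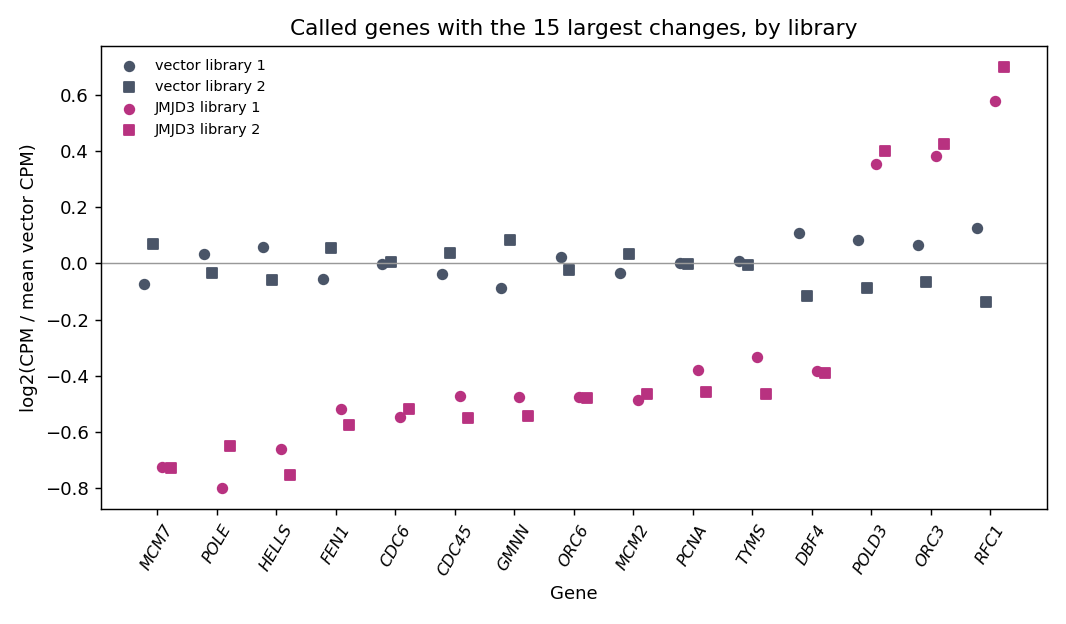
Log2 ratio of the CPM of each library to the mean CPM of the vector libraries (y axis) for the called genes with the 15 largest changes (x axis), with circles for library 1 and squares for library 2. In all 15 genes the JMJD3 libraries (magenta) lie on 1 side of the vector libraries (gray), below in 12 and above in POLD3, ORC3 and RFC1. The genes were chosen by their calls in these same libraries, which favors such separation. Of all tested genes 34.8% were separated below and 39.6% above.

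Polymerase alpha-primase starts every strand, and 0 of its 4 subunits passed in edgeR, the DESeq2 Wald test or limma, nor did any at an unadjusted p under 0.05 in these tests. PRIM2, its member with the largest change, had 25.95 and 28.35 CPM in vector cells and 31.8 and 31.7 CPM in JMJD3 cells (log2 fold change 0.23, adjusted p = 0.119). POLA1, the catalytic subunit, and POLA2 had 0.13 and 0.07, and PRIM1 stood at 0.00, with a 95% confidence interval from -0.21 to 0.20. With library totals alone POLA2 and PRIM2 passed as higher and PRIM1 had 0.17. PRIM2 had 0.02 by FPKM, 0.12 without vector library 1 and 0.29 without vector library 2. POLA2 had -0.0072 by FPKM and -0.0004 without vector library 1. Between 18.3% and 21.3% of the exon bases of PRIM2, PRIM1 and POLA2 are shared with other genes, the largest overlap in each being on the same strand.

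POLE, the catalytic subunit of the leading-strand polymerase, had the second largest fall in the list. It stood at 333 and 317 CPM in vector cells and at 187 and 207 CPM in JMJD3 cells (log2 fold change -0.72, standard error 0.08, adjusted p = 0.00215). By FPKM it went from 68.9 and 73.7 to 39.1 and 41.6. Its partner POLE2 fell by 0.33 on the log2 scale (adjusted p = 0.0381), a call lost with library totals alone, no filter, the replicate block, and without JMJD3 library 1 or 2 (adjusted p = 0.322 and 0.366).

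Polymerase delta copies the lagging strand. POLD3, its accessory subunit, rose from 55.2 and 49 CPM in vector cells to 66.6 and 68.7 CPM in JMJD3 cells (log2 fold change 0.38, adjusted p = 0.0238). The catalytic subunit POLD1 had -0.27 and missed the threshold (adjusted p = 0.0513, edgeR). It passed with DESeq2 size factors and in the DESeq2 Wald test, and by FPKM it was called lower (log2 fold change -0.41, adjusted p = 0.038, limma). With no filter or with the replicate block it did not pass. Its log2 fold change was -0.10 with library totals alone, and -0.40 and -0.17 without vector library 1 and 2. POLD2 had -0.12, which was -0.29 without vector library 1, 0.01 without vector library 2 and 0.05 with library totals alone. The ratio of POLD3 to POLD1 counts was 0.287 and 0.223 in vector cells and 0.389 and 0.402 in JMJD3 cells. The POLD3 call was lost with no filter, with the replicate block, and without JMJD3 library 1 or 2 (adjusted p = 0.183 and 0.262).

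RPA coats single-stranded DNA at the fork. Of its 3 subunits 0 passed in edgeR, the DESeq2 Wald test or limma, while at an unadjusted p under 0.05 there was 1 higher in edgeR, 0 in DESeq2 and 1 lower in limma. RPA3 had the largest change, with 40.55 and 47.3 CPM in vector cells and 37.9 and 36.4 CPM in JMJD3 cells (log2 fold change -0.24, adjusted p = 0.127), and RPA2 and RPA1 had 0.20 and -0.06. Without vector library 1 RPA3 had -0.39 and RPA2 0.12, and without vector library 2 they had -0.13 and 0.25. RPA2 passed as higher with library totals alone, where RPA1 had 0.11. Okazaki fragments are trimmed by FEN1 and sealed by LIG1. FEN1 went from 221 and 239 CPM in vector cells to 161 and 155 CPM in JMJD3 cells (log2 fold change -0.55, standard error 0.08, adjusted p = 0.00385). LIG1 had -0.22 (adjusted p = 0.0561, edgeR), with both JMJD3 libraries below both vector libraries. It was called lower by FPKM (log2 fold change -0.33, adjusted p = 0.0323, limma) and with DESeq2 size factors. Over all settings tried its log2 fold change ran from -0.33 to -0.05, and with a library left out from -0.30 to -0.18.

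Of the enzymes that supply deoxynucleotides, thymidylate synthase and the large ribonucleotide reductase subunit fell. TYMS had 241 and 239 CPM in vector cells and 191 and 174 CPM in JMJD3 cells (log2 fold change -0.40, adjusted p = 0.0102). Some 47.9% of its exon bases are shared with other genes, the largest overlap being with ENOSF1 on the opposite strand. The TYMS call was lost with library totals alone and without JMJD3 library 1 or 2 (log2 fold change -0.46 and -0.33). RRM1 fell by 0.29 on the log2 scale (adjusted p = 0.0268), a call lost with FPKM values, library totals alone, no filter, the replicate block, and without JMJD3 library 1 or 2 (0.309 and 0.25). TK1, the salvage kinase for thymidine, had -0.15 and did not pass except without vector library 1 (adjusted p = 0.0186), and had 0.02 with library totals alone.

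RRM2, the small reductase subunit, had opposite signs on the deposited scales. Its counts gave 237 and 223 CPM in vector cells and 200 and 204 CPM in JMJD3 cells (log2 fold change -0.19, adjusted p = 0.0878). Its FPKM values were 170 and 133 in vector cells and 173 and 184 in JMJD3 cells (log2 fold change 0.25, adjusted p = 0.201, limma). Neither passed, though the counts passed without vector library 1 or 2 (0.0391 and 0.0241).

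HELLS, a remodeler of the SNF2 family that takes part in DNA methylation, went from 66.8 and 61.5 CPM in vector cells to 40.55 and 38.1 CPM in JMJD3 cells (log2 fold change -0.71, standard error 0.10, adjusted p = 0.0032). The counts of the groups did not overlap, and the call held without each library in turn. Its FPKM values, 31.5 and 23.5 in vector cells and 25.4 and 23.3 in JMJD3 cells, did overlap, with a log2 fold change of -0.15 (adjusted p = 0.48, limma).

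Counts and FPKM of 1 gene differ by the transcript length used for it, and counts per FPKM give that length relative to the median gene of a library. For HELLS it was 1.098 and 1.36 in vector cells and 0.814 and 0.8495 in JMJD3 cells, for RRM2 0.722 and 0.871 against 0.59 and 0.577, and for RFC1 1.17 and 1.05 against 1.47 and 1.54. The groups did not overlap in any of these 3 genes. A shift of over 0.2 on the log2 scale was seen in 9 of the 49 genes (18.4%), which also include MCM4, ORC3, ORC4, GINS4, DBF4 and POLE2, beside 16.8% of 11085 tested genes with enough counts for the measure, so the list was not set apart by it. Which transcripts the estimated lengths stand for was not tested.

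**Figure D4:**
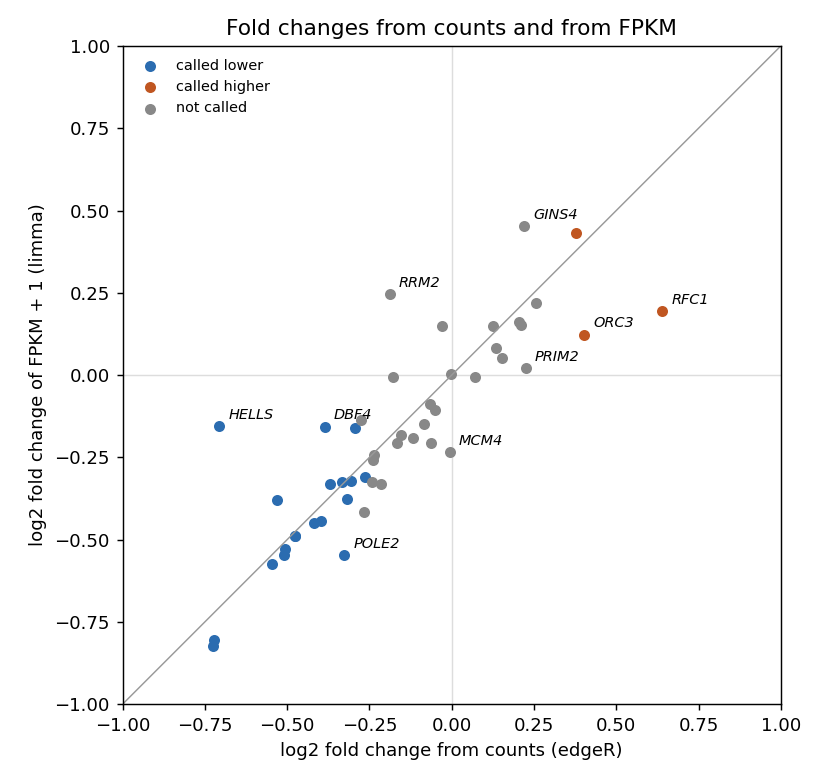
Log2 fold change of JMJD3 over vector cells from counts (x axis, edgeR) against that from FPKM + 1 (y axis, limma) for the 49 genes, colored by the call from counts, with a diagonal of equality and names where the values differ by over 0.2. HELLS lies at -0.71 and -0.15, RFC1 at 0.64 and 0.20, and RRM2 at -0.19 and 0.25.

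Levels per length spanned a wide range. After PCNA came MCM7, POLD2 and MCM4, at mean FPKM values of 486, 361 and 346 in vector cells. The lowest by the mean of either group was POLA1, at 11.8 and 10.6 FPKM in vector cells and 11.1 and 12.7 in JMJD3 cells. In vector library 2 and JMJD3 library 2 ORC2 lay lower, at 10.2 and 11.2 FPKM. Subunits of 1 complex were not at 1 level: POLD2 was at 361 FPKM and POLD3 at 19.4 FPKM in vector cells, and POLA2 at 64.1 FPKM beside 11.2 FPKM for POLA1.

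**Figure D5:**
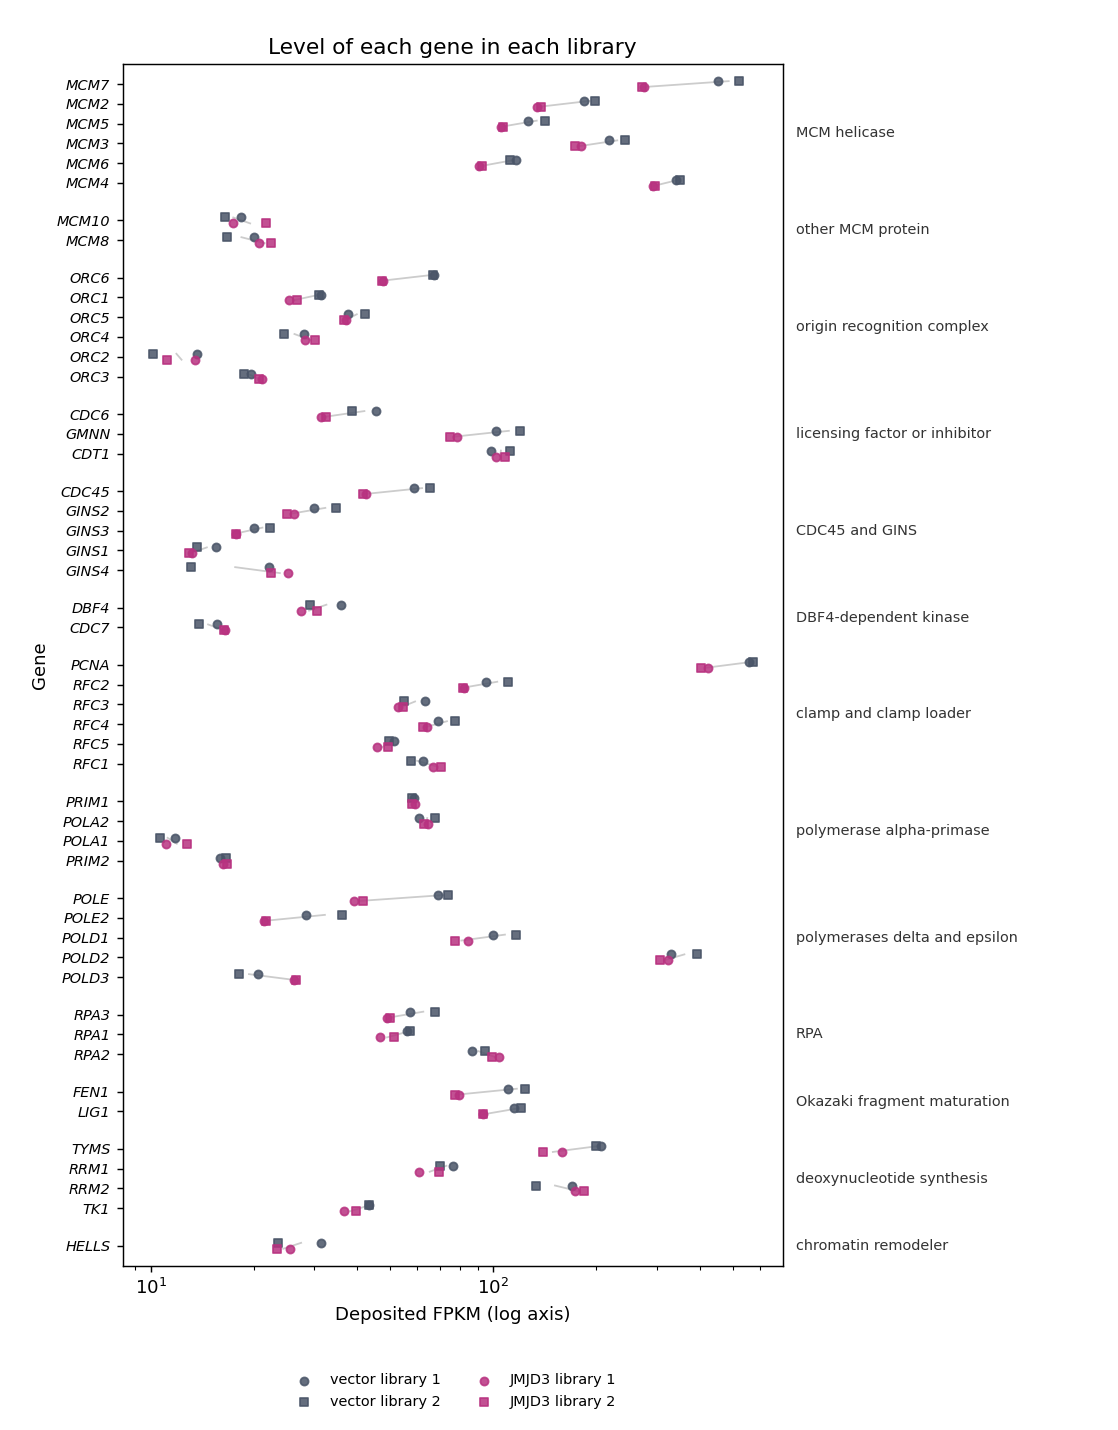
Deposited FPKM (log axis) of each of the 49 genes in each of the 4 libraries, grouped by role, with gray lines joining the group means. By the means of the vector libraries (gray points) PCNA at 565 and MCM7 at 486 lie highest and POLA1 at 11.2 lowest, an order that differs in part in the JMJD3 libraries (magenta points), where MCM7 lies below POLD2 and MCM4.

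Related genes outside the list were counted in the same fit. Of 38 further genes of the fork, checkpoint and chromatin assembly, 9 were lower (23.7%) and 3 higher (7.89%), with a median of -0.05. The shares were 19.1% and 21.6% of all tested genes and 31.5% and 12.6% of genes at the level of the replication genes. Some genes of this list, such as MTBP and ATAD5, lie below that level. The maintenance methyltransferase DNMT1, the checkpoint clamp subunit HUS1 and the histone chaperone subunit CHAF1A fell by 0.45, 0.57 and 0.39 on the log2 scale. POLD4, the smallest subunit of polymerase delta, WDHD1, which ties polymerase alpha to the fork, and the cohesion factor DSCC1 rose by log2 fold changes of 1.04, 0.68 and 0.51. With library totals alone this list had 2 lower and 7 higher, beside 10.5% and 31.2% of all tested genes. With no filter or with the replicate block it had 5 lower, beside 6.55% and 15.8% of all genes tested in these fits. The numbers called in this list fell without JMJD3 library 1 or 2 and rose without vector library 1, as did the shares of all tested genes. HUS1 did not pass without JMJD3 library 1 (adjusted p = 0.119), nor did CHAF1A (0.146 and 0.12) and DSCC1 (0.0899 and 0.0894) without JMJD3 library 1 or 2, and WDHD1 and DSCC1 did not pass with limma on FPKM + 1. CHAF1A did not pass with library totals alone.

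Of 31 further tested genes of nucleotide synthesis, out of 32 listed, 15 were lower (48.4%) and 4 higher (12.9%), with a median of -0.25. The shares were 19.1% and 21.6% of all tested genes and 31.5% and 12.6% of genes at the level of the replication genes. Some genes of this list, such as TK2, lie below that level. DTYMK, which phosphorylates thymidylate, CTPS1, which makes CTP, and NME1, a nucleoside diphosphate kinase that shares sequence with NME2, fell by 0.72, 0.65 and 0.62 on the log2 scale. The dNTP hydrolase SAMHD1 and the salvage kinase DCK rose by log2 fold changes of 0.54 and 0.51. With library totals alone the counts were 12 and 7, beside 10.5% and 31.2% of all tested genes. They fell without JMJD3 library 1 or 2 and rose without vector library 1, as did the shares of all tested genes. The higher calls were lost without JMJD3 library 2. With no filter 2 were higher, beside 6.99% of the genes then tested, and DCK was not among them. CTPS1, DTYMK and NME1 were called lower without each library in turn. SAMHD1 and DCK were not called without JMJD3 library 1 (adjusted p = 0.0697 and 0.111) or JMJD3 library 2 (0.0661 and 0.0754).

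Of 40 mitotic genes 16 were lower (40.0%) and 2 higher (5.00%), with a median of -0.23. The shares were 19.1% and 21.6% of all tested genes. Among genes at the level of the replication genes they were 31.5% and 12.6%, with a median of -0.13. Some mitotic genes, such as CENPE, lie below that level. The proliferation antigen MKI67, cyclin CCNB2 and the mitotic transcription factor FOXM1 fell by 0.84, 0.70 and 0.68 on the log2 scale, while HMMR and the topoisomerase TOP2A rose by log2 fold changes of 0.58 and 0.54. By FPKM MKI67 went from 62.2 and 64.0 to 24.2 and 24.0 (log2 fold change -1.385, limma on FPKM + 0.1), past 2-fold. There were 7 lower without JMJD3 library 1, 8 lower without JMJD3 library 2, 4 higher without vector library 1, 10 lower and 1 higher with no filter, and 9 lower and 5 higher with library totals alone, settings under which the shares of all tested genes moved as well. TOP2A did not pass with FPKM values or with no filter.

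Among 29 of 33 regulators of the G1 to S transition that were tested, 11 were lower (37.9%) and 6 higher (20.7%). Their median was -0.07. The shares were 19.1% and 21.6% of all tested genes and 31.5% and 12.6% of genes at the level of the replication genes. Some of these regulators, such as CDK6 and LIN54, lie below that level. Cyclin CCND2 fell most, from 158.5 and 193 CPM in vector cells to 68.5 and 60 CPM in JMJD3 cells (log2 fold change -1.45, adjusted p = 0.00107), and CDKN2D and CDK6 fell by 0.56 and 0.48 on the log2 scale. The pocket proteins RBL2 and RB1, which hold E2F factors in check, and LIN54, a DNA-binding subunit of the DREAM complex, rose by log2 fold changes of 1.04, 0.87 and 0.81. Of these regulators, 3 were lower with library totals alone, beside 10.5% of all tested genes. Fewer were also called lower without JMJD3 library 1 or 2, where the share of all tested genes fell as well. With no filter 5 were lower and 3 higher, beside 6.55% and 6.99% of the genes then tested, and RB1 did not pass. CDKN2D did not pass without JMJD3 library 2 (adjusted p = 0.152), and CDK6 did not without JMJD3 library 1 or 2 (0.207 and 0.0927), with FPKM values, library totals alone or no filter.

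Markers of other cells were read beside the list. Of 6 T cell markers TRAC and CD2 were tested and rose, and the list summed to 16.1 and 17.9 FPKM in vector cells and 62.4 and 58.4 FPKM in JMJD3 cells, with TRAC its most abundant gene, while CD3D, CD3E, CD3G and CD8A had at most 10 counts in any library. The 5 monocyte markers, led by FCN1, summed to 24.45 and 24.1 against 30.5 and 32.85 FPKM, with FCN1 and CSF1R higher, and the 5 B cell markers, led by CD79B and with MS4A1 at 0, to 30.85 and 40 against 46.2 and 42.6 FPKM, with CD79A higher. Of 5 fibroblast markers VIM alone was tested and rose, in a sum of 325 and 349 against 506 and 505 FPKM, with COL1A2 and COL3A1 at 0. Of 6 erythroid markers 5 were at 0 in every library, and the highest count was 4. NB4 cells themselves express VIM and myeloid genes, and the part of these markers in the values of the replication genes was not tested.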

How the data were processed

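The deposited table gives, for each gene and library, an estimated count and FPKM, both made by the authors. The authors' fold change on the log2 scale, their p-value, their FDR and their mean FPKM per group are also deposited and were not used. The submitters' processing notes name CASAVA 1.8, TopHat2 2.0.4, RSEM, edgeR and GRCh38, the published methods name STAR, hg19, HTSeq-count and DESeq2, and the design text of the series names BWA, TopHat and Cufflinks. The table has no coordinates and does not settle this, but 98.4% of its nonzero counts are not whole (tolerance 1e-06), as estimated counts are. DMEM and Trizol are named in the labels, another medium and a column kit in the methods.

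The members and the gene lists were chosen with earlier results of these data known. Counts were rounded to whole numbers, filtered with filterByExpr (15246 of 60662 genes kept), scaled with TMM (factors 0.949, 0.937, 1.05 and 1.07 for vector 1 and 2 and JMJD3 1 and 2) and tested with edgeR 4.0.16 (glmQLFit, glmQLFTest, R 4.3.3), with Benjamini-Hochberg adjustment over all tested genes. The square root of F gave the standard error from the log2 fold change. CPM use the scaled totals. An exact permutation test of 2 against 2 libraries cannot give a p below 0.333. A gene at 0 may have had up to 3 counts, or 0.0786 to 0.081 CPM, by counting error alone. Values per library are given for the called genes with the 15 largest changes and for the gene with the largest change of each role. In the other lists up to 3 genes a direction are named, by size among those called, and 1 gene so chosen is not reported here. Genes given outside these rules, and the count ratios, were chosen after their values were seen. The alternatives tried were scaling by DESeq2 1.42.0 size factors or by library totals alone, testing by the DESeq2 Wald test or by limma 3.58.1 on FPKM with 1 or 0.1 added before the log2, leaving out the filter or asking for 10 counts in every library, a replicate block, leaving out each library, and other thresholds. Genes of like level are the tested genes whose mean FPKM over the 4 libraries is at least that of the lowest member. Exon overlap comes from GENCODE release 44 on GRCh37, and promoters from RefSeq. The overlap percentages count bases shared with any other gene on either strand.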

Additional observations from a re-analysis of the deposited data

How the results depend on the processing

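With library totals only, 10 genes of the list were lower and 10 higher, and 1598 of all tested genes were lower. The list median was then -0.0459 and that of all genes 0.2100, where the chosen scaling gave -0.2159 and 0.0406. Log2 fold changes of genes that were not called turned positive with library totals only in MCM4 (0.1628), ORC4 (0.1395), ORC5 (0.1188), GINS1 (0.0842), RFC4 (0.0040), RFC5 (0.1033), PRIM1 (0.1667), POLD2 (0.0527), RPA1 (0.1078) and TK1 (0.0178), by the construction of that scale. With DESeq2 size factors and with the DESeq2 Wald test the list median was -0.2500 and that of all genes 0.0081. With limma on log2(FPKM + 1) and log2(FPKM + 0.1), 1 gene of the list was higher in each, as were 2046 and 2032 of all tested genes. The list medians were -0.1924 and -0.1929, those of all genes 0.0140 and 0.0228, and their distances -0.2064 and -0.2157, from -0.2565. In these fits the signs turned in ORC4 (0.1502 and 0.1551), POLA2 (-0.0072 and -0.0073), PRIM1 (0.0029 in both) and RRM2 (0.2452 and 0.2466), and the cause was not tested. With no filter 1 gene of the list was higher, and 1776 of the 27095 genes then tested were lower and 1893 higher. With at least 10 counts in every library the median of all genes was 0.0341, the distance -0.2407, and MCM4 (0.0028) and PRIM1 (0.0065) turned positive. The replicate numbers share only a number between groups. A block for them gave 12 lower genes in the list (24.5%, beside 15.8% of all tested genes and 24.2% of genes of like level) and a median of 0.0452 for all genes, and a block with crossed numbers, chosen after seeing the data, gave 24 lower of 49 (beside 24.7% of all tested genes and 40.7% of genes of like level), 5 higher (10.2%, beside 28.4% and 18.4%) and a median of 0.0444. At an adjusted p under 0.01, 10 genes of the list were lower and 1 higher, and 1300 and 1468 of all tested genes. At 2-fold, 0 of the list were lower and 0 higher in edgeR, DESeq2 and limma, also at an unadjusted p under 0.05. Of all tested genes 430 were lower and 1151 higher at 2-fold and an adjusted p under 0.05 in edgeR, and 508 and 1264 at an unadjusted p under 0.05. Leaving out each library in turn, with a lone library assumed to vary like the others, gave 6 to 29 lower and 1 to 6 higher genes in the list, 1110 to 4212 lower and 1890 to 4248 higher of all tested genes, list medians of -0.2820 to -0.1741, medians of all genes of 0.0147 to 0.0387 and distances of -0.2981 to -0.1887. The log2 fold change then ran from -0.0924 to 0.0356 in MCM4, from -0.0129 to 0.2290 in MCM10, from -0.0004 to 0.0964 in POLA2, from -0.0300 to 0.0279 in PRIM1 and from -0.2857 to 0.0136 in POLD2. Over all genes of the list and all alternatives, 499 values kept their direction and side of the threshold, 43 gained and 69 lost a call in the same direction, and 26, all of genes that were not called, changed sign. Of the values of other named genes 287 kept both and 25 lost a call. With 2 libraries a group, the median standard error of 0.0955 in the list limits which changes can be called.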
